A study of Mus musculus with 18 samples.

Results

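The genes described here are 42 genes that cells need to copy their DNA and to pass from G1 into S phase. They were taken by gene symbol from a list of 42 names, which was drawn up with earlier results of these data known. All 42 were found among the 56748 genes of the count table, and all 42 had enough counts to be tested, as did 13691 genes in all. By role they are origin licensing (4 genes), the MCM helicase (6), its activation (6), primase and polymerases (6), the sliding clamp with its loader and RPA (7), Okazaki fragment joining (2), deoxynucleotide supply (4), histone supply and chromatin copying (4), and the G1/S switch (3).

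RNA was measured in RAW264.7, a mouse macrophage cell line that divides in culture, in 6 conditions with 3 biological replicates each, which gave 18 libraries of polyadenylated RNA. All 18 are labelled WT (wild type). The series asks what an earlier exposure to TBHQ (tert-butylhydroquinone, a food antioxidant that activates the transcription factor Nrf2) does to the response of macrophages to a bacterial or a viral kind of stimulus. Control cells were left in medium on the same 12 h schedule as the stimulated cells, and TBHQ cells were given 5 µM TBHQ for 4 h and harvested. LPS cells were given lipopolysaccharide, a component of the outer membrane of Gram-negative bacteria, at 0.1 µg/mL for 12 h, and PIC cells were given poly(I:C), a mimic of viral RNA, at 20 µg/mL for 12 h. LPS + TBHQ and PIC + TBHQ cells had TBHQ (5 µM, 4 h) before the stimulus, which was given at the same dose for 12 h. TBHQ alone thus differed from the control in harvest time as well as in treatment, and in that comparison the effects of these cannot be told apart. A wait of 4 h before the stimulus is not described for the groups without TBHQ. Whether the stimulated groups with and without TBHQ had equal time in culture is thus not known. TBHQ was dissolved in DMSO, which is not named for the groups without TBHQ, so an effect of TBHQ and an effect of its solvent cannot be told apart either.

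DNA replication starts from origins, where ORC, Cdc6 and Cdt1 load the MCM helicase during G1. Cyclin E with its kinase and the E2F transcription factors then open S phase, the helicase is activated by Cdc45 and GINS, and polymerases copy both strands behind it while nucleotides and histones are supplied in step. Macrophage lines divide continuously, whereas LPS is known to slow the cycle of proliferating macrophages.

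The libraries held 14423390 to 18851626 counts. Of 8 macrophage markers, 8 were tested and the most abundant was Lyz2, at 3399 to 4647 FPKM (fragments scaled to gene length and library size, as deposited, a scale on which genes of different length can be compared). The 4 lymphocyte, 3 fibroblast and 3 epithelial markers were all too low to be tested, and each of these lists summed to at most 0.338, 0.0523 and 0.0279 FPKM in any library. Of 5 osteoclast markers 4 were tested, with Ctsk the most abundant at 158 to 215 FPKM. Among 4 neutrophil markers 1 was tested, S100a8, at 0.939, 0.796 and 0.597 FPKM in the control, 2.94, 3.71 and 3.12 with LPS and 5.07, 6.01 and 5.70 with PIC. Each stimulated library of S100a8 lay above each control library, and the gene had 3 to 67 counts over all libraries. Ocstamp, an osteoclast marker, was at 2.33, 2.22 and 2.38 FPKM in the control, 3.06, 2.84 and 3.23 with LPS and 4.17, 4.25 and 3.81 with PIC, again with each stimulated library above each control library. Of 3 dendritic cell markers 1 was tested, Zbtb46, at 0.0804 to 0.189 FPKM. Among the macrophage markers, Mrc1 was low, at a mean of 0.121 to 0.308 FPKM over the conditions. The mean of Csf1r was 154 FPKM in the control, 91.7 with LPS and 86.1 with PIC. Adgre1 went the other way, at 18.4, 50.6 and 67.6 FPKM, as did Itgam, at 10.6, 20.7 and 25.5. The cells therefore carried macrophage markers, as labelled, though the levels of some differed between conditions. The part of this in the results was not tested. Mitochondrial genes took 2.03%, 2.16% and 2.18% of the counts in the control libraries, 1.92%, 1.89% and 1.91% with TBHQ alone, and 1.67% to 1.91% in the stimulated libraries. Each treated library thus lay below each control library in this share, with and without a stimulus, and the part of this in the results was not tested.

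In untreated cells the 42 genes spanned a wide range of levels. Pcna, the sliding clamp that holds polymerases on DNA, was the highest, at 106 ± 4.52 FPKM (SD, n = 3), followed by the helicase subunits Mcm5 (62.1 ± 1.66) and Mcm3 (58.9 ± 0.667) and the ribonucleotide reductase subunit Rrm2 (55.9 ± 2.49). At the low end stood the nuclease Fen1 (4.06 ± 0.190), the origin-binding subunit Orc1 (5.66 ± 0.170) and the leading-strand polymerase Pole (5.90 ± 0.209). The ranges of mean ± SD overlapped for the neighbours Orc1 and Pole and for Mcm3 and Rrm2. Summed over the 42 genes, the level was 970.0, 981 and 962 FPKM in the control libraries and 978, 987 and 987 after TBHQ alone. The LPS libraries summed to 727, 755 and 786 FPKM, the LPS + TBHQ libraries to 804, 825 and 827, the PIC libraries to 571, 578 and 614, and the PIC + TBHQ libraries to 579, 576 and 596. The sum thus lay lower in each stimulated library than in each unstimulated library, and each LPS + TBHQ library lay above each LPS library. The PIC and PIC + TBHQ sums overlapped.

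Changes are given as log2FC, the log2 of the ratio between conditions, with SE as the standard error of that value. Each comes from the quasi-likelihood test of edgeR on the counts, with 3 libraries against 3, and each p was adjusted by the Benjamini-Hochberg method over the 13691 genes. A gene is said to have risen or fallen where the adjusted p, the false discovery rate (FDR), was below 0.05. Libraries were scaled by TMM, which sets the bulk of genes to no change. With scaling by total library size instead, the median log2FC of all genes tested moved to -0.23 for PIC against the control, -0.15 for PIC + TBHQ against the control and -0.14 for PIC against LPS. Measured from the median of all genes, the median of the 42 genes was -0.84, -0.76 and -0.39 in these comparisons under either scaling. The comparisons with the control share the control libraries, and those with and without TBHQ share the stimulated libraries, so their values are set side by side and were not taken as separate evidence.

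Most of the replication genes were lower with both stimuli, and lower with PIC than with LPS. With LPS, 34 of the 42 genes fell, where 24.1% of all genes tested fell, and 1 rose, where 24.0% of all genes tested rose. With PIC, 39 fell, against 30.1% of all genes tested, and 1 rose, against 28.6%. The median log2FC of the 42 genes was -0.42 with LPS and -0.86 with PIC, where that of all genes tested was 0.00 and -0.01. The neutrophil marker S100a8 rose where these genes fell, at a log2FC of 2.05 (SE 0.352, adjusted p = 7.45e-06) with LPS and 2.82 (SE 0.325, adjusted p = 2.28e-09) with PIC, and so did the osteoclast marker Ocstamp (0.39 and 0.80). With PIC the dendritic cell marker Zbtb46 (0.84) and the osteoclast marker Acp5 (0.14) rose too. Other osteoclast markers fell, namely Ctsk with both stimuli (-0.15 and -0.17) and Dcstamp with PIC (-0.13), and the mean sum of that list went from 294 FPKM in the control to 279 with LPS and 280 with PIC. The part of these markers in the result was not tested. In bulk RNA, fewer cells in S phase and less of a transcript in each such cell cannot be told apart.

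The fall was graded and moderate in size. The lowest and highest log2FC were -0.998 and 0.28 with LPS, and -1.69 and 0.25 with PIC. At a fold of the control below 0.5 stood 12 of the 42 genes with PIC and 0 with LPS. In 36 of the 42 genes the mean level was ordered with the control highest, LPS next and PIC lowest. The shares of all genes tested at such a fold or in such an order were not counted, so these counts describe the 42 genes only. The genes that did not fall with LPS were Orc1, Cdt1, Cdc45, Pola2, Slbp, Ccne1, Ccne2 and E2f1, and with PIC these were Orc1, Pola2 and Slbp. None of the 42 genes (0) reached the limit used in the study for these comparisons, an adjusted p below 0.01 with a |log2FC| above 2, although at an unadjusted p below 0.05 edgeR put 34 genes lower with LPS and 40 with PIC. That limit was reached by 1.64% of all genes tested with LPS and by 3.57% with PIC.

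Compared directly, PIC lay below LPS in 37 of the 42 genes, where 12.8% of all genes tested were lower, and above it in 1, where 14.9% of all genes tested were higher. The median log2FC of PIC against LPS was -0.40. The 1 higher gene was Pola2, and the 4 genes that did not pass were Orc1, Rfc3, Fen1 and Slbp.

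**Figure D1:**
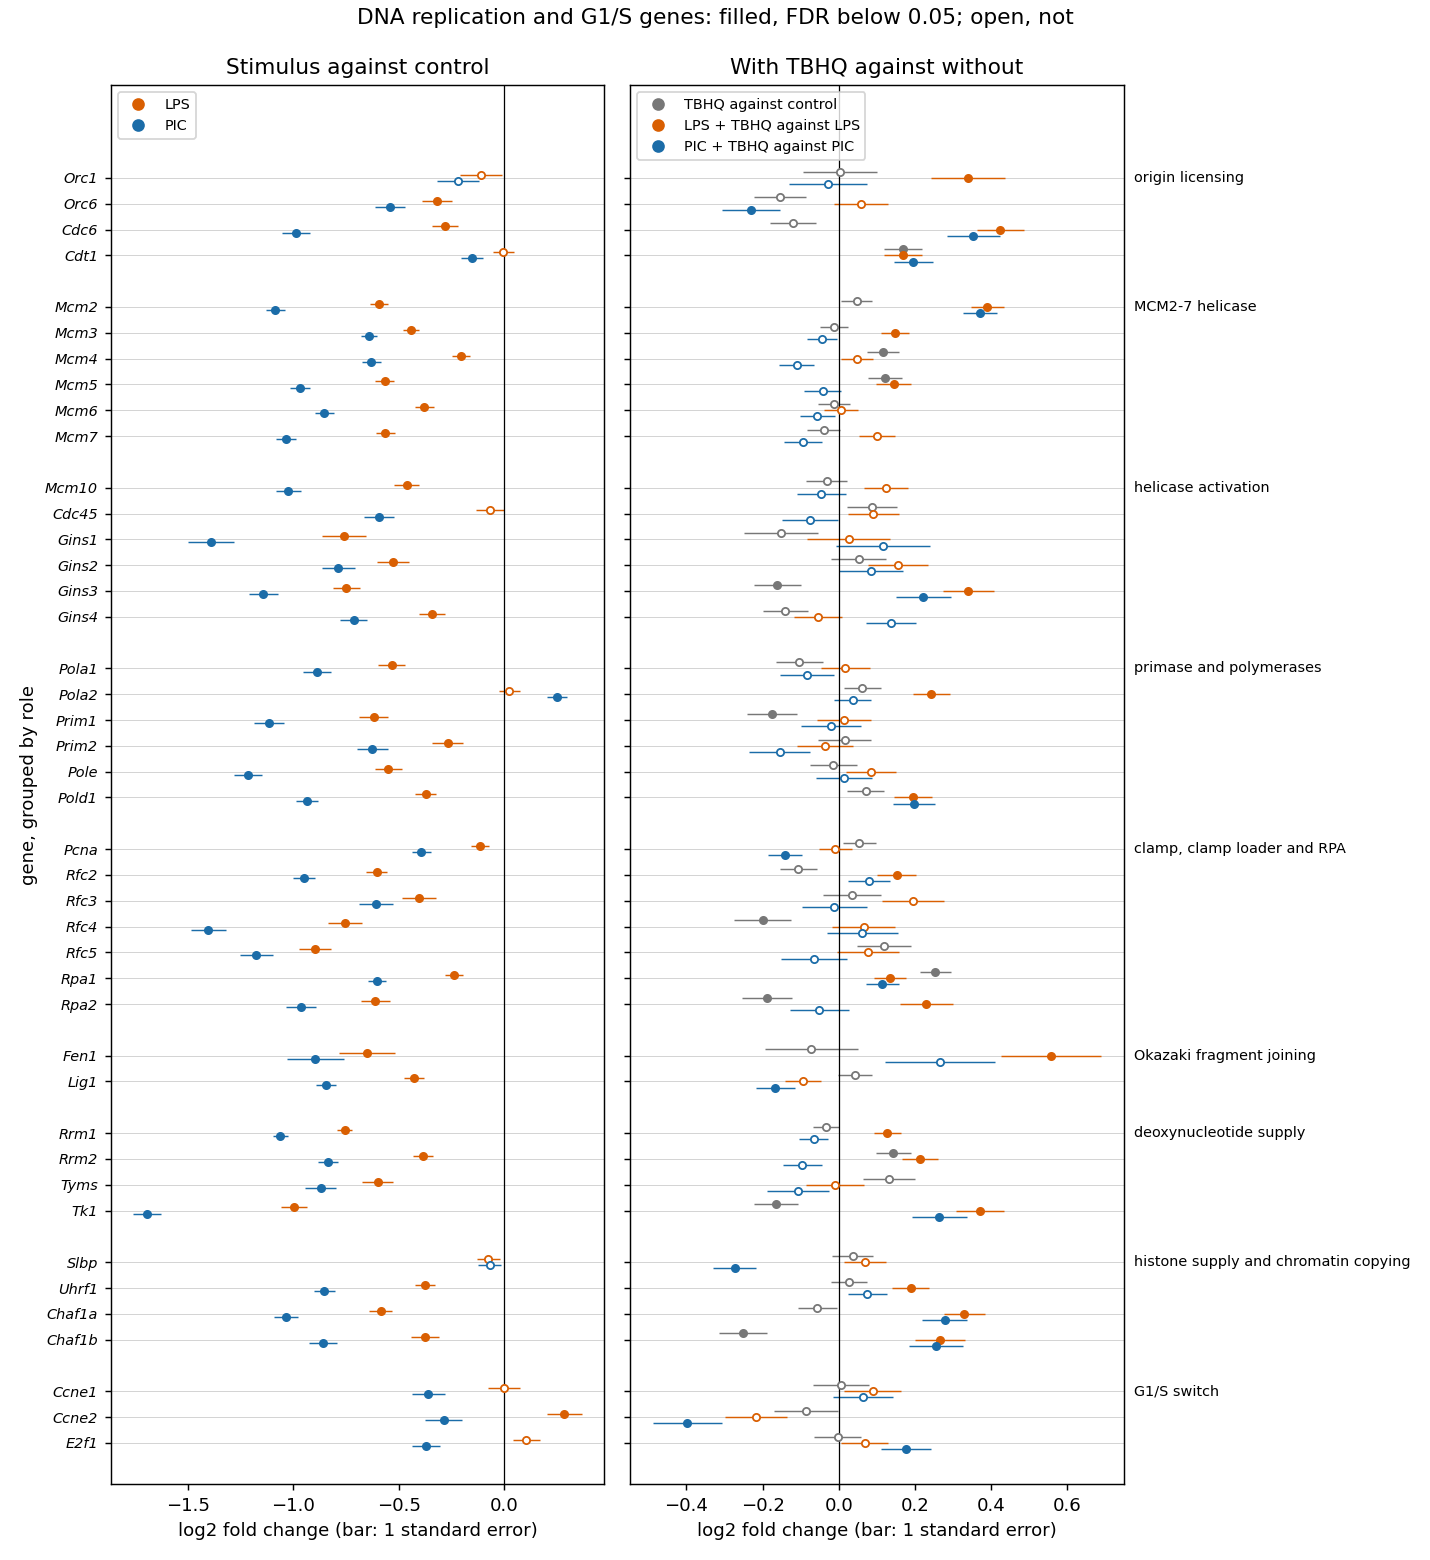
The log2FC of each of the 42 genes (points) with 1 standard error (bars), grouped by role, for the stimuli against the control (left) and for TBHQ against no TBHQ (right), with filled points at an FDR below 0.05. On the left, PIC points lie to the left of LPS points for nearly all genes, and Pola2 is the gene that lies above 0 with PIC.

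Among the 4 licensing genes, which mark origins and load the helicase in G1, 2 fell with LPS and 3 with PIC. For this role and those below, 24.1% of all genes tested fell and 24.0% rose with LPS. With PIC these shares were 30.1% and 28.6%. Cdc6 (ENSMUSG00000017499, chromosome 11, 98798627 to 98814766, plus strand), the loader ATPase, was the licensing gene with the largest fall with PIC. It measured 8.70, 9.88 and 10.02 FPKM in the control libraries, 7.72, 7.79 and 8.16 with LPS and 4.69, 4.64 and 5.23 with PIC. All LPS libraries lay below all control libraries, and all PIC libraries lay below both. The log2FC of Cdc6 was -0.28 (SE 0.0627, adjusted p = 3e-04) with LPS and -0.99 (SE 0.0663, adjusted p = 2.65e-15) with PIC. Orc6, a subunit of the origin recognition complex, fell with LPS (-0.32) and PIC (-0.54). Cdt1, the partner of Cdc6, measured 35.3, 33.2 and 32.1 FPKM in the control, 32.6, 31.2 and 36.8 with LPS and 29.4, 30.6 and 31.3 with PIC. The LPS libraries of Cdt1 overlapped the control on both sides, at a log2FC of -0.01 (adjusted p = 0.935), whereas each PIC library lay below each control library, at -0.15 (adjusted p = 0.00874). The fall of Cdt1 with PIC was lost when the control library 1 or the PIC library 1 was left out. Orc1 passed with neither stimulus, at -0.11 with LPS (adjusted p = 0.371) and -0.22 with PIC (adjusted p = 0.0587), although it counted as lower with PIC when scaled by total library size or upper quartile.

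The 6 subunits of the MCM helicase, the ring that unwinds DNA at the fork, all fell with both stimuli. Their log2FC lay between -0.59 and -0.20 with LPS, and with PIC between -1.08 and -0.63. Mcm2 (ENSMUSG00000002870, chromosome 6, 88860456 to 88875762, minus strand) moved furthest of the 6. Its level was 29.7, 29.0 and 28.4 FPKM in the control, 17.97, 19.1 and 21.0 with LPS and 13.7, 13.6 and 14.2 with PIC, and the 3 groups were fully apart. This gave a log2FC of -0.59 (SE 0.0423, adjusted p = 2.57e-14) with LPS and -1.08 (SE 0.0434, adjusted p = 7.26e-22) with PIC, so that Mcm2 fell by 33.7% and fell by 52.8%. Mcm4 moved least with both stimuli, at -0.20 and -0.63, so the values within the ring were unequal.

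Helicase activation needs Mcm10, Cdc45 and the 4 GINS subunits, which join the MCM ring to form the working helicase. With LPS 5 of these 6 genes fell and with PIC all 6 did. Gins2 measured 7.55, 7.83 and 7.79 FPKM in the control, 4.83, 5.52 and 5.80 with LPS and 4.72, 4.44 and 4.44 with PIC. Each stimulated library of Gins2 lay below each control library, and the PIC libraries lay below the LPS libraries by a small margin. Its log2FC was -0.53 (SE 0.077, adjusted p = 4.63e-07) with LPS and -0.79 (SE 0.0785, adjusted p = 8.02e-11) with PIC. Gins1 and Gins3 fell further, to -1.39 and -1.14 with PIC. Cdc45 was at -0.07 with LPS (adjusted p = 0.422) and fell with PIC (-0.59), and PIC lay below LPS (log2FC -0.52, adjusted p = 3.36e-07).

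Of the 6 genes for primase and polymerases, which start and extend the new strands, 5 fell with each stimulus. Pola1, the catalytic subunit of polymerase alpha, measured 7.50, 7.33 and 7.90 FPKM in the control, 5.26, 5.52 and 4.999 with LPS and 3.87, 3.82 and 4.69 with PIC. Its groups did not overlap, and its log2FC was -0.53 (SE 0.0632, adjusted p = 6.67e-09) with LPS and -0.89 (SE 0.0648, adjusted p = 2.56e-14) with PIC. Pola2 (ENSMUSG00000024833, chromosome 19, 5990570 to 6014230, minus strand), the accessory subunit of the same enzyme, behaved differently. It measured 8.13, 9.23 and 8.66 FPKM in the control, 9.001, 8.75 and 8.84 with LPS and 9.92, 10.6 and 10.7 with PIC, and each PIC library lay above each library of the other 2 groups. The log2FC of Pola2 was 0.02 (SE 0.05, adjusted p = 0.741) with LPS and 0.25 (SE 0.0491, adjusted p = 4.44e-05) with PIC, a rise that did not pass when libraries were scaled by total size. Measured from the median of all genes, its log2FC was 0.26 with PIC under both scalings. The primase subunits Prim1 and Prim2 fell too, at -1.11 and -0.63 with PIC. Pole, of the leading strand, reached -1.21 and Pold1, of the lagging strand, -0.93.

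All 7 genes of the clamp, the clamp loader and RPA fell with both stimuli. Pcna measured 101, 109.8 and 106 FPKM in the control, 93.1, 105 and 96.0 with LPS and 77.0, 80.6 and 86.5 with PIC. Its LPS libraries overlapped the control, where its PIC libraries lay below. The log2FC of Pcna was -0.12 (SE 0.044, adjusted p = 0.0276) with LPS, which did not pass in limma on log2 FPKM, with a filter at a mean of 50 counts, or without any 1 of control libraries 2 and 3 and LPS libraries 1 and 3. With PIC it was -0.39 (SE 0.0444, adjusted p = 1.35e-09). The loader subunits, which open the clamp and place it on DNA, lay at lower log2FC than the clamp. Rfc5 measured 14.9, 13.8 and 14.0 FPKM in the control, 7.99, 6.77 and 8.30 with LPS and 5.82, 5.96 and 7.26 with PIC, at a log2FC of -0.90 (SE 0.0768, adjusted p = 3.04e-12) with LPS and -1.17 (SE 0.0783, adjusted p = 2.12e-15) with PIC. Rfc4 measured 25.8, 27.9 and 26.2 FPKM in the control, 13.6, 18.03 and 16.01 with LPS and 10.03, 10.2 and 10.3 with PIC, at -0.75 (SE 0.0791, adjusted p = 4.36e-10) and -1.40 (SE 0.0837, adjusted p = 9.24e-17). In both loader genes every stimulated library lay below every control library. Rfc2 and Rfc3 were at -0.95 and -0.61 with PIC. RPA coats the unwound strands, and the log2FC with LPS and PIC was -0.24 and -0.60 for Rpa1 and -0.61 and -0.96 for Rpa2.

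Okazaki fragments, the short pieces of the lagging strand, are trimmed by Fen1 and sealed by Lig1, and both genes fell with both stimuli. Fen1 (ENSMUSG00000024742, chromosome 19, 10176496 to 10181533, minus strand) measured 4.22, 3.85 and 4.10 FPKM in the control, 2.30, 2.42 and 3.09 with LPS and 2.03, 2.26 and 2.32 with PIC. All LPS and PIC libraries without TBHQ lay below the control, while the LPS and PIC libraries overlapped each other. Its log2FC was -0.65 (SE 0.132, adjusted p = 9.49e-05) with LPS and -0.90 (SE 0.135, adjusted p = 5.3e-07) with PIC. Fen1 had the fewest counts of the 42 genes, from 67 per library. Lig1 was at -0.43 with LPS and -0.84 with PIC.

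The 4 genes of deoxynucleotide supply all fell with both stimuli and included the largest fall. Tk1 (ENSMUSG00000025574, chromosome 11, 117706352 to 117716918, minus strand), the thymidine kinase that recovers thymidine in S phase, measured 17.8, 17.3 and 17.2 FPKM in the control, 7.84, 8.33 and 10.1 with LPS and 5.55, 5.29 and 5.51 with PIC. The 3 groups were apart, though the LPS libraries were more spread than the others. The log2FC of Tk1 was -0.998 (SE 0.0616, adjusted p = 4.46e-16) with LPS and -1.69 (SE 0.0653, adjusted p = 2.37e-22) with PIC, which left its fold at 0.501 and 0.309 of the control. Rrm2, the S phase subunit of ribonucleotide reductase, measured 57.0, 57.7 and 53.1 FPKM in the control, 40.0, 44.0 and 45.2 with LPS and 30.7, 30.3 and 33.9 with PIC, with no overlap. Its log2FC was -0.38 (SE 0.047, adjusted p = 1.39e-08) with LPS and -0.84 (SE 0.0481, adjusted p = 3.27e-17) with PIC, and that of the partner subunit Rrm1 was -0.76 and -1.06. Tyms, which makes thymidylate, measured 6.96, 6.55 and 6.50 FPKM in the control, 3.80, 4.72 and 4.73 with LPS and 3.45, 3.66 and 3.93 with PIC. The LPS and PIC libraries of Tyms overlapped at their edge, and its log2FC was -0.60 (SE 0.0731, adjusted p = 1.2e-08) with LPS and -0.87 (SE 0.0745, adjusted p = 1.76e-12) with PIC.

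Copying of chromatin needs new histones and the factors that restore its marks. Uhrf1, which brings maintenance DNA methylation to new strands, measured 46.7, 45.9 and 45.4 FPKM in the control, 34.0, 33.3 and 39.5 with LPS and 24.4, 25.01 and 27.7 with PIC. Its groups were apart, at a log2FC of -0.38 (SE 0.0482, adjusted p = 3.5e-08) and -0.85 (SE 0.0493, adjusted p = 3.79e-17). The histone chaperone subunits Chaf1a and Chaf1b fell as well, to a log2FC of -1.03 and -0.86 with PIC. Slbp, which binds the stem-loop of histone mRNA, measured 8.40, 8.95 and 8.97 FPKM in the control, 8.11, 8.74 and 8.25 with LPS and 8.29, 8.18 and 8.88 with PIC. The 3 groups of Slbp overlapped, and it passed with neither stimulus (log2FC -0.08, adjusted p = 0.265, and -0.07, adjusted p = 0.29), although it counted as lower with both under total library size.

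Of the 3 G1/S switch genes, 1 rose with LPS and 0 fell by edgeR (0 at an unadjusted p below 0.05), while all 3 fell with PIC. Ccne2 (ENSMUSG00000028212, chromosome 4, 11191351 to 11204779, plus strand), a cyclin E gene, measured 10.3, 11.05 and 10.1 FPKM in the control, 11.5, 14.3 and 12.7 with LPS and 8.61, 7.21 and 10.1 with PIC. Each LPS library lay above each control library, and each PIC library lay below, the closest by little. The log2FC of Ccne2 was 0.28 (SE 0.0825, adjusted p = 0.00449) with LPS and -0.29 (SE 0.0858, adjusted p = 0.00424) with PIC, and -0.57 (SE 0.0851, adjusted p = 2.09e-06) for PIC against LPS. The rise with LPS did not pass without LPS library 2, nor the fall with PIC without PIC library 2. Ccne1, the other cyclin E gene, measured 15.4, 16.6 and 15.0 FPKM in the control, 14.0, 15.0 and 18.02 with LPS and 12.9, 11.5 and 12.6 with PIC. It was at -0.0044 (SE 0.0756, adjusted p = 0.969) with LPS, where the libraries overlapped, and at -0.36 (SE 0.0774, adjusted p = 0.000133) with PIC, where they did not. E2f1, an activating E2F factor, measured 16.6, 17.7 and 17.4 FPKM in the control, 17.3, 17.9 and 20.7 with LPS and 13.6, 12.5 and 14.4 with PIC. Its log2FC was 0.10 (SE 0.0629, adjusted p = 0.183) with LPS and -0.37 (SE 0.065, adjusted p = 7.28e-06) with PIC, and PIC lay below LPS (log2FC -0.47, adjusted p = 5.22e-07).

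**Figure D2:**
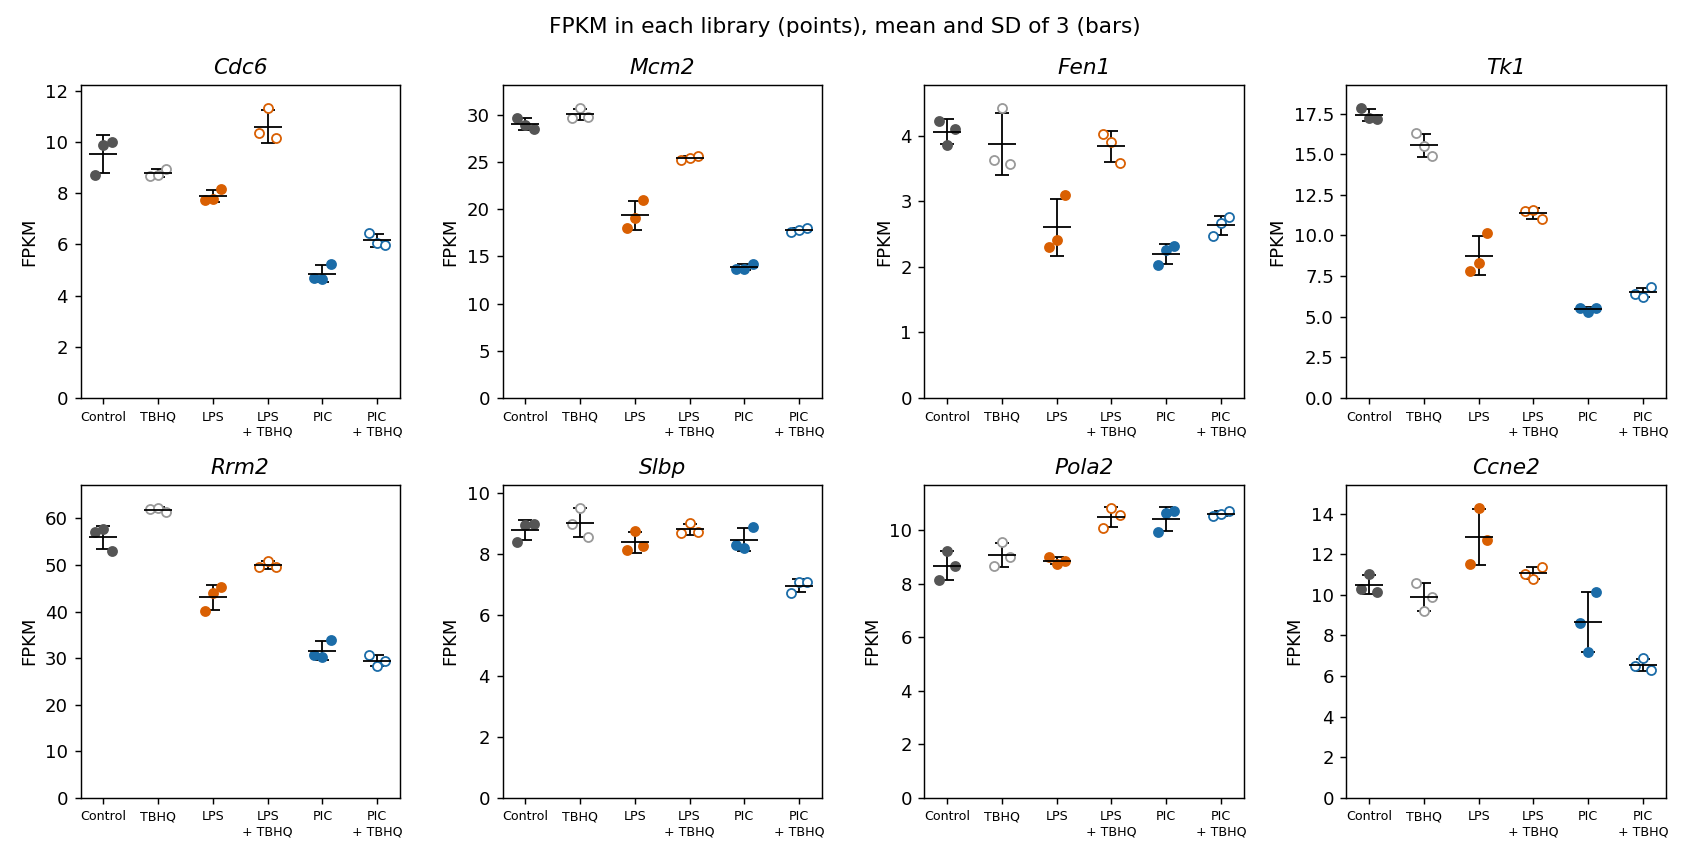
FPKM of 8 of the genes in each library (points), with the mean and SD of 3 libraries (bars), in the 6 conditions, open points marking TBHQ. Tk1 falls from 17.2 to 17.8 FPKM in the control to 5.29 to 5.55 with PIC, and Pola2 lies between 8.13 and 10.8 FPKM in all libraries.

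TBHQ alone for 4 h moved few of the 42 genes, and by small amounts. 5 rose, where 14.2% of all genes tested rose, and 6 fell, where 14.8% of all genes tested fell, so neither share was far from that of all genes. The median log2FC was -0.01, and the values ran from -0.25 to 0.25. Rpa1, of the complex that coats unwound strands, measured 28.2, 29.4 and 29.9 FPKM in the control and 33.4, 36.1 and 35.0 with TBHQ, with no overlap, at a log2FC of 0.25 (SE 0.0412, adjusted p = 9.27e-06). Cdt1 rose from the control values above to 36.9, 36.9 and 39.4 FPKM, at 0.17 (SE 0.0489, adjusted p = 0.00804). The other genes that rose were Mcm4 (0.12), Mcm5 (0.12) and Rrm2, which measured 62.0, 62.3 and 61.3 FPKM with TBHQ (0.14, SE 0.0455, adjusted p = 0.0156).

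Chaf1b, of the histone chaperone, measured 10.6, 10.02 and 9.67 FPKM in the control and 8.55, 8.02 and 8.87 with TBHQ, with no overlap, at a log2FC of -0.25 (SE 0.0637, adjusted p = 0.00258). Rfc4 measured 21.7, 25.2 and 22.8 FPKM with TBHQ, below each control library, at -0.20 (SE 0.0744, adjusted p = 0.0403). The fall was smaller in Gins3 (-0.16), Prim1 (-0.18), Rpa2 (-0.19) and Tk1 (-0.16). Of the 6 genes that fell, DESeq2 kept 1, with 5 still higher, and without each library in turn 1 to 4 were higher and 1 to 3 lower. The limit of the study was reached by 0 of the 42 genes with TBHQ alone (edgeR, where an unadjusted p below 0.05 took in 5 higher and 9 lower) and by 0.190% of all genes tested.

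With LPS, the cells exposed to TBHQ beforehand had higher levels of many replication genes. 19 of the 42 genes were higher in LPS + TBHQ than in LPS, where 11.7% of all genes tested were higher. By edgeR 0 were lower, where 12.2% of all genes tested were lower, and at an unadjusted p below 0.05 the count was 1. DESeq2 put 18 higher and 0 lower. The median log2FC of the 42 genes was 0.13, against 0.00 for all genes tested, and the values ran from -0.22 to 0.56. Markers of other cells moved with TBHQ as well: among osteoclast markers, Ctsk fell after LPS (-0.20), after PIC (-0.19) and with TBHQ alone (-0.26), Ocstamp fell after PIC (-0.58) and alone (-0.62), as did Acp5 (-0.20 and -0.34), and Dcstamp rose after LPS (0.18) and PIC (0.39) and fell alone (-0.16). Ocstamp after LPS (-0.22, adjusted p = 0.159) and S100a8 after PIC (-0.55, adjusted p = 0.0974) did not pass. The part of these markers in the effect of TBHQ was not tested.

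After PIC the picture was mixed. Between PIC + TBHQ and PIC, 10 of the 42 genes were higher, where 15.8% of all genes tested were higher, and 5 were lower, where 15.5% of all genes tested were lower. The median log2FC was -0.02, and the values ran from -0.40 to 0.37. This split depended on the scaling: it was 13 higher and 2 lower with total library size, and 8 and 6 with RLE. DESeq2, which differs in its test as well, gave 7 and 6. The count of higher genes was 6 without PIC library 2. After LPS it was 12 without LPS library 1. Higher with TBHQ after both stimuli were 9 of the 42 genes, where 8.02% of all genes tested were, namely Cdc6, Cdt1, Mcm2, Gins3, Pold1, Rpa1, Tk1, Chaf1a and Chaf1b, of which Gins3 and Rpa1 after PIC did not pass in DESeq2. A further 17 genes passed in neither comparison.

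In licensing, 3 of 4 genes were higher with TBHQ after LPS, and after PIC 2 were higher and 1 lower. For this role and those below, 11.7% of all genes tested were higher and 12.2% lower after LPS. After PIC these shares were 15.8% and 15.5%. Cdc6 measured 10.3, 11.3 and 10.2 FPKM in LPS + TBHQ and 6.46, 6.06 and 5.996 in PIC + TBHQ, above each library of the stimulus alone in both. The log2FC of Cdc6 was 0.42 (SE 0.0619, adjusted p = 1.61e-06) after LPS and 0.35 (SE 0.07, adjusted p = 0.000138) after PIC. Its LPS + TBHQ libraries lay above the control libraries as well, at 0.14 (adjusted p = 0.0511), while its PIC + TBHQ libraries lay below them. Cdt1 measured 38.2, 37.2 and 37.9 FPKM in LPS + TBHQ and 34.6, 33.4 and 35.9 in PIC + TBHQ, at 0.17 (SE 0.0494, adjusted p = 0.01) and 0.20 (SE 0.0503, adjusted p = 0.00259), and the call after LPS was lost without LPS library 1 or 2. Orc1 rose after LPS (0.34, adjusted p = 0.00876) and was at -0.03 after PIC (adjusted p = 0.87), but the difference between these effects did not pass (adjusted p = 0.198). The rise of Orc1 after LPS was lost without LPS library 3 or LPS + TBHQ library 3. Orc6 fell after PIC (-0.23, adjusted p = 0.0189), a call lost under total library size and without any 1 of 3 libraries.

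Of the 6 helicase subunits, 3 were higher after LPS (50%, against 11.7% of all genes tested). After PIC 1 was higher (16.7%), a share near the 15.8% of all genes tested. Mcm2 measured 25.2, 25.4 and 25.7 FPKM in LPS + TBHQ and 17.6, 17.8 and 17.98 in PIC + TBHQ. In both cases the libraries lay between those of the stimulus alone and those of the control, with no overlap. The log2FC of Mcm2 was 0.39 (SE 0.0424, adjusted p = 4.02e-09) after LPS and 0.37 (SE 0.0446, adjusted p = 2.56e-08) after PIC. The other 5 subunits were at 0.01 to 0.15 after LPS, among which Mcm3 and Mcm5 passed, and at -0.11 to -0.04 after PIC, where 0 passed in edgeR (1 at an unadjusted p below 0.05, Mcm4). After LPS the call of Mcm5 was lost in limma and without any 1 of 4 libraries. After PIC, Mcm4 counted as lower in DESeq2, RLE and limma. In the same ring, the value of Mcm2 after PIC thus stood apart from those of the other subunits.

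Of the helicase activators, Gins3 was higher after both stimuli, at 0.34 (SE 0.0663, adjusted p = 0.000154) and 0.22 (SE 0.0722, adjusted p = 0.0173). After PIC the call of Gins3 was lost in DESeq2, with no filter, in a fit on only the conditions compared, and without any 1 of 4 libraries. Gins2 measured 5.59, 6.29 and 6.15 FPKM in LPS + TBHQ and 4.50, 4.71 and 5.08 in PIC + TBHQ, overlapping the stimulus alone in both, at 0.16 (SE 0.0787, adjusted p = 0.158) and 0.08 (SE 0.0836, adjusted p = 0.491). Pola1 overlapped in the same way, with 5.48, 5.60 and 4.93 FPKM in LPS + TBHQ and 3.94, 3.80 and 3.90 in PIC + TBHQ. Pola2 measured 10.1, 10.8 and 10.6 FPKM in LPS + TBHQ, above each LPS and control library, and 10.5, 10.6 and 10.7 in PIC + TBHQ, level with PIC. Its log2FC was 0.24 (SE 0.0491, adjusted p = 0.000254) after LPS and 0.04 (SE 0.0486, adjusted p = 0.611) after PIC, and the difference between them was -0.21 (adjusted p = 0.129). Pold1 was higher after both, at 0.20 and 0.20, the latter call being lost without PIC library 2.

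Pcna measured 95.7, 96.3 and 101 FPKM in LPS + TBHQ and 71.5, 72.8 and 75.6 in PIC + TBHQ. It overlapped LPS in the former, and in the latter each library lay below each PIC library. The log2FC of Pcna was -0.01 (SE 0.0441, adjusted p = 0.922) after LPS and -0.14 (SE 0.0452, adjusted p = 0.0158) after PIC, a fall lost under total library size and without PIC library 3 or PIC + TBHQ library 1. Rfc4 and Rfc5 were not called after either stimulus, at 0.06 and 0.08 after LPS and 0.06 and -0.06 after PIC. Rpa1 was higher after both, with 26.1, 27.9 and 28.0 FPKM in LPS + TBHQ and 20.6, 21.3 and 20.8 in PIC + TBHQ (0.13, SE 0.0424, adjusted p = 0.018, and 0.11, SE 0.044, adjusted p = 0.0444). The call after LPS was lost without any 1 of 3 libraries. After PIC its libraries overlapped, and that call was lost in DESeq2, RLE, limma and other settings.

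Fen1 had the largest log2FC between LPS + TBHQ and LPS. It measured 4.02, 3.90 and 3.58 FPKM in LPS + TBHQ and 2.47, 2.67 and 2.75 in PIC + TBHQ, above each library of the stimulus alone in both. Its log2FC was 0.56 (SE 0.132, adjusted p = 0.00161) after LPS, where its libraries overlapped those of the control, and 0.27 (SE 0.144, adjusted p = 0.168) after PIC. Lig1 was at -0.09 (SE 0.0475, adjusted p = 0.156) after LPS and fell after PIC, at -0.17 (SE 0.0505, adjusted p = 0.0104), a call lost under total library size and without PIC + TBHQ library 1.

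Tk1 measured 11.5, 11.6 and 10.99 FPKM in LPS + TBHQ and 6.41, 6.24 and 6.82 in PIC + TBHQ, above each library of the stimulus alone and below each control library. Its log2FC was 0.37 (SE 0.0634, adjusted p = 2.37e-05) after LPS and 0.26 (SE 0.0725, adjusted p = 0.00475) after PIC. Rrm2 measured 49.5, 50.9 and 49.6 FPKM in LPS + TBHQ, above each LPS library, and 30.6, 28.2 and 29.4 in PIC + TBHQ, where it overlapped PIC. The log2FC of Rrm2 was 0.21 (SE 0.0472, adjusted p = 0.000715) after LPS and -0.10 (SE 0.0505, adjusted p = 0.156) after PIC. Rrm1 was at 0.13, a call lost without LPS library 1, and -0.07. Tyms passed with neither, at 4.24, 4.55 and 4.39 FPKM in LPS + TBHQ and 3.55, 3.28 and 3.37 in PIC + TBHQ.

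Chaf1a and Chaf1b were higher with TBHQ after both stimuli, Chaf1a at 0.33 (SE 0.0539, adjusted p = 1.16e-05) and 0.28 (SE 0.0583, adjusted p = 0.000288). Chaf1b measured 6.94, 8.02 and 8.47 FPKM in LPS, 9.25, 9.36 and 9.61 in LPS + TBHQ, 5.51, 5.60 and 5.75 in PIC and 6.68, 6.36 and 6.92 in PIC + TBHQ, with no overlap within either pair (0.27, SE 0.0656, adjusted p = 0.00234, and 0.25, SE 0.0714, adjusted p = 0.00566). The call of Chaf1b after LPS was lost without LPS library 1. Chaf1b had fallen with TBHQ alone, so its sign there was the opposite. Slbp measured 8.67, 8.995 and 8.71 FPKM in LPS + TBHQ, overlapping LPS, and 6.71, 7.08 and 7.07 in PIC + TBHQ, below each PIC and control library. Its log2FC was 0.07 (SE 0.0545, adjusted p = 0.408) after LPS and -0.27 (SE 0.0562, adjusted p = 0.000223) after PIC. Uhrf1 measured 40.5, 40.5 and 40.8 FPKM in LPS + TBHQ and 27.5, 26.7 and 26.6 in PIC + TBHQ, at 0.19 (SE 0.0484, adjusted p = 0.00327) and 0.08 (SE 0.0509, adjusted p = 0.285).

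Ccne2 measured 11.1, 10.8 and 11.4 FPKM in LPS + TBHQ, below each LPS library, and 6.50, 6.89 and 6.30 in PIC + TBHQ, below each PIC library. Its log2FC was -0.22 (SE 0.0817, adjusted p = 0.0503) after LPS, which passed in 4 of 10 other settings, and -0.40 (SE 0.0915, adjusted p = 0.000843) after PIC. It was the gene of the 42 with the largest fall with TBHQ after PIC. Ccne1 measured 16.6, 17.6 and 15.9 FPKM in LPS + TBHQ and 12.4, 11.8 and 14.1 in PIC + TBHQ and passed in neither comparison (0.09 and 0.06). E2f1 measured 18.1, 20.001 and 20.7 FPKM in LPS + TBHQ and 14.4, 15.7 and 15.4 in PIC + TBHQ, at 0.07 (SE 0.0619, adjusted p = 0.489) and 0.18 (SE 0.0663, adjusted p = 0.0402). The latter call was lost in DESeq2, RLE and limma, with a filter at a mean of 50 counts, and without any 1 of 4 libraries.

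Whether TBHQ acted differently after PIC than after LPS was tested directly, as the effect of TBHQ after PIC minus its effect after LPS. 3 of the 42 genes were lower in this sense, where 1.01% of all genes tested were, and 0 were higher by edgeR, where 0.825% of all genes tested were. At an unadjusted p below 0.05, edgeR put 12 of the 42 genes lower and 1 higher, where 939 and 1001 of the 13691 genes tested were. The 3 lower genes were Rrm2 (-0.31, SE 0.0691, adjusted p = 0.0097), Slbp (-0.34, SE 0.0782, adjusted p = 0.0121) and Rrm1 (-0.19, SE 0.0524, adjusted p = 0.046). The call of Rrm1 was lost under total library size, in a fit on only the conditions compared, and without any 1 of 6 libraries, whereas those of Rrm2 and Slbp held in all 10 settings and without each library in turn. The median over the 42 genes was -0.11, with 37 of them below 0, where the median of all genes tested was 0.01 and 47.9% of them were below 0. Mcm3 was at -0.19 (SE 0.0537, adjusted p = 0.0576) and counted as lower in 7 of the 10 settings, among them DESeq2, RLE, upper quartile and limma. For the other genes the effects of TBHQ after LPS and after PIC were not shown to differ in the edgeR test at an FDR below 0.05.

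Against the untreated control, most replication genes were below it after both stimuli with TBHQ. In LPS + TBHQ 31 of the 42 genes were below the control, against 22.5% of all genes tested, and 3 above it, against 21.2%. In PIC + TBHQ 40 were below, against 26.0% of all genes tested, and 1 above, against 26.4%. The median log2FC was -0.28 in LPS + TBHQ and -0.76 in PIC + TBHQ. The genes above the control were Cdt1 (0.16), Pola2 (0.27) and E2f1 (0.17) in LPS + TBHQ and Pola2 (0.29) in PIC + TBHQ. The count above the control in LPS + TBHQ was 1 under total library size and 5 under RLE. The limit of the study was reached by 0 of the 42 genes in both (edgeR, with 31 and 40 lower at an unadjusted p below 0.05), and by 0.964% and 2.15% of all genes tested. Between PIC + TBHQ and LPS + TBHQ, 40 of the 42 genes were lower with PIC + TBHQ, where 8.39% of all genes tested were lower, and 0 higher by edgeR or DESeq2 (0 at an unadjusted p below 0.05), where 11.9% of all genes tested were higher. The median log2FC between these was -0.50.

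Genes around the 42 were read from lists of related function. Of 35 further fork and origin genes, 25 fell and 4 rose with LPS and 29 fell and 3 rose with PIC, with a median log2FC of -0.37 and -0.80. Total library size gave 29 lower and 1 higher with LPS and 31 lower and 0 higher with PIC. Of all genes tested, 24.1% fell and 24.0% rose with LPS in the main fit, and 30.1% fell and 28.6% rose with PIC. Dbf4, which activates the kinase that fires origins, was at -0.82 with LPS, and Rnaseh2c, of the enzyme that removes RNA from DNA, at -0.85 and -1.33. Gmnn, the inhibitor of Cdt1, fell with LPS (-0.73) and PIC (-1.16), as did Dtl, part of the ligase that removes Cdt1 (-0.37 and -0.91). Mcm8 fell with PIC to -1.37, while Mcm9, its partner, rose (0.37), a rise lost under total library size. TBHQ raised 11 and lowered 1 of this list after LPS, and raised 8 and lowered 2 after PIC, where total library size gave 12 and 0. The shares of all genes tested that rose and fell with TBHQ were 11.7% and 12.2% after LPS and 15.8% and 15.5% after PIC. With TBHQ alone 5 of the list rose and 8 fell (14.3% and 22.9%), where 14.2% and 14.8% of all genes tested did.

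Of 28 further G1/S regulators, 27 were tested, and 17 fell and 3 rose with LPS and 19 fell and 2 rose with PIC. Of all genes tested, 24.1% fell and 24.0% rose with LPS, and 30.1% fell and 28.6% rose with PIC. Cdkn1a, which encodes the cell cycle inhibitor p21, measured 43.8, 38.5 and 38.9 FPKM in the control, 109, 101 and 107 with LPS and 142, 137 and 142 with PIC. It rose, at a log2FC of 1.38 (SE 0.0435, adjusted p = 1.19e-24) with LPS and 1.78 (SE 0.0434, adjusted p = 2.07e-28) with PIC, with no overlap. With TBHQ it measured 56.3, 53.1 and 55.4 FPKM in LPS + TBHQ and 69.5, 67.4 and 64.5 in PIC + TBHQ, lower than the stimulus alone at -0.95 (SE 0.0425, adjusted p = 2.52e-19) and -1.05 (SE 0.042, adjusted p = 1.3e-20). TBHQ alone raised Cdkn1a, to 52.1, 56.0 and 54.4 FPKM (0.42, SE 0.0439, adjusted p = 1.72e-09). Cdkn2c, which encodes another cell cycle inhibitor, went the other way. It was at -1.56 (SE 0.0973, adjusted p = 5.84e-16) with LPS and -1.73 (SE 0.0984, adjusted p = 2.35e-17) with PIC. With TBHQ after LPS it was higher (0.50, SE 0.105, adjusted p = 0.000366). The mean of the inhibitor gene Cdkn2d was 19.5 FPKM in the control, 15.3 with LPS and 12.2 with PIC, and that of Cdkn1b 8.42, 9.31 and 9.24. Ccnd1, the cyclin D gene that carries growth signals into the cycle, measured 78.8, 67.8 and 70.2 FPKM in the control, 39.7, 42.9 and 43.6 with LPS and 27.8, 27.2 and 28.8 with PIC. Its log2FC was -0.79 (SE 0.046, adjusted p = 9.03e-17) with LPS and -1.39 (SE 0.0473, adjusted p = 6.02e-24) with PIC, and TBHQ raised it by 0.44 after LPS, 0.65 after PIC and 0.37 alone. Ccna2, the cyclin of S phase and G2, fell further than any of the 42 genes, at -1.80 and -2.33. Over this list TBHQ raised 14 and lowered 3 after LPS and raised 10 and lowered 4 after PIC, and with TBHQ alone 9 rose and 2 fell. The shares raised were 51.85%, 37.04% and 33.33%, where 11.7%, 15.8% and 14.2% of all genes tested rose. The shares lowered were 11.11%, 14.81% and 7.407%, where 12.2%, 15.5% and 14.8% of all genes tested fell.

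Of 24 genes of nucleotide synthesis, 18 fell and 3 rose with LPS and 20 fell and 3 rose with PIC. Of all genes tested, 24.1% fell and 24.0% rose with LPS, and 30.1% fell and 28.6% rose with PIC. TBHQ raised 9 and lowered 3 after LPS, raised 8 and lowered 3 after PIC (14 and 2 with total library size), and raised 7 and lowered 3 alone. The shares raised were 37.5%, 33.33% and 29.17%, where 11.7%, 15.8% and 14.2% of all genes tested rose. The share lowered was 12.5% in each, near the 12.2%, 15.5% and 14.8% of all genes tested that fell. Dut, which keeps uracil out of DNA, was at -0.88 and -1.34 with LPS and PIC. Of 10 genes of chromatin replication and histone supply, 9 fell and 0 rose by edgeR with each stimulus (0 higher at an unadjusted p below 0.05). Asf1b, a histone chaperone of dividing cells, was at -1.07 and -1.57. TBHQ raised 6 of these 10 after LPS and 2 after PIC (7 and 5 with total library size), and 3 alone, and lowered 0 in each by edgeR (0, 1 and 1 at an unadjusted p below 0.05). The shares raised were 60%, 20% and 30%, where 11.7%, 15.8% and 14.2% of all genes tested rose and 12.2%, 15.5% and 14.8% fell.

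The 20 genes of mitosis and G2/M, which act after replication, were measured for comparison. All 20 fell with LPS and with PIC, where 24.1% and 30.1% of all genes tested fell. Their median log2FC was -1.75 and -2.10, larger in size than the -0.42 and -0.86 of the 42 replication genes. This difference between lists is a description and was not tested. Plk1, the mitotic kinase, fell most with LPS (-2.44) and Cenpf, of the kinetochore, with PIC (-3.09). The proliferation marker Mki67 was at -1.68 and -2.04, Top2a at -1.40 and -1.91, and Cdk1 at -1.21 and -1.72. TBHQ raised 19 of the 20 after LPS, at a median of 0.49, and 16 after PIC, at 0.25. It lowered 0 in either by edgeR (0 and 1 at an unadjusted p below 0.05), and TBHQ alone raised 4 and lowered 1. Of all genes tested, 11.7% rose and 12.2% fell with TBHQ after LPS, 15.8% and 15.5% after PIC, and 14.2% and 14.8% with TBHQ alone. For Mki67 the effect of TBHQ was smaller after PIC than after LPS, at a difference of -0.32 (SE 0.0636, adjusted p = 0.00298).

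**Figure D3:**
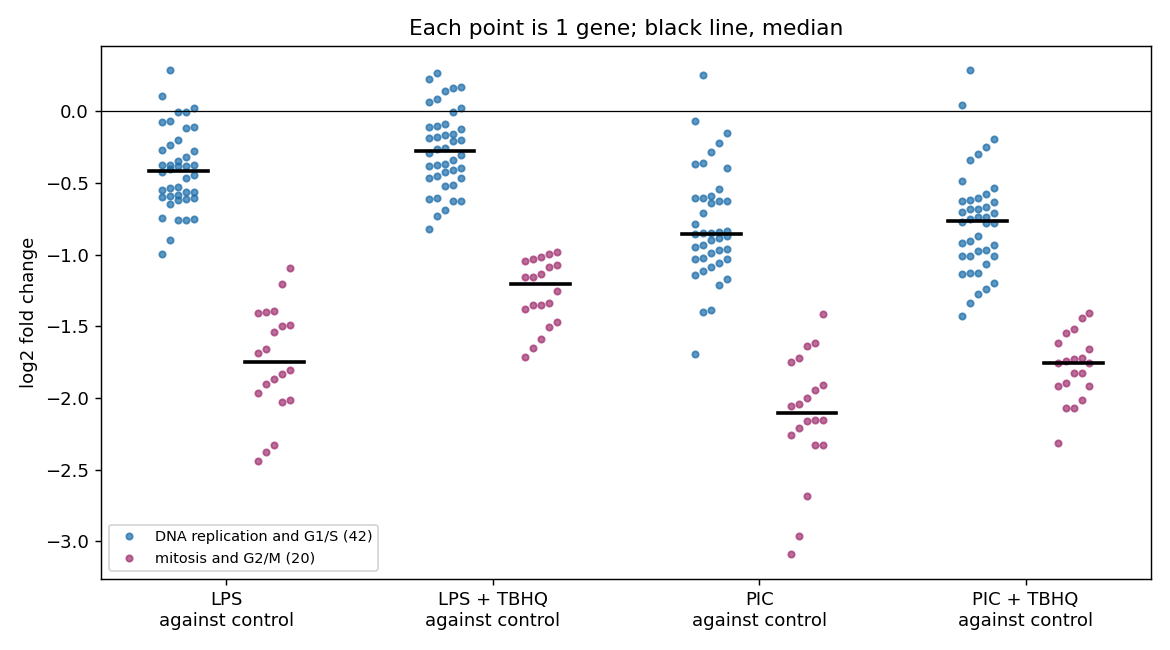
The log2FC of each gene against the control (points) for the 42 DNA replication and G1/S genes and 20 mitosis and G2/M genes in the 4 stimulated conditions, with the median of each list (black lines). The mitosis medians lie at -1.75, -1.21, -2.10 and -1.76 and those of the replication genes at -0.42, -0.28, -0.86 and -0.76.

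The promoters of the 42 genes were searched for short DNA motifs, since the genes moved together and many are known targets of E2F factors. RefSeq promoters (GRCm38.p6, 250 bases before to 50 after the start) were found for 34 of the 42 genes and not for Pole, Gins2, Mcm4, Gins4, Prim2, Gins1, Ccne2 and Rfc2. The bases after the start were found in the first part of a transcript of the gene for 11 of 14 promoters on the plus strand and 17 of 20 on the minus strand, and not for Mcm5, Mcm6, Rpa1, Fen1, Lig1 and Chaf1a, for which the start was thus not checked by a transcript. Where a gene had more than 1 promoter (4 genes), the one listed first was used. The E2F forms searched were TTTCGCGC, TTTGGCGC, TTTCCCGC and TTTGCCGC, beside CCAAT, which NF-Y binds, and the CHR element TTTGAA of late cell cycle genes, each on both strands. The first pair of E2F forms can overlap, since the reverse of TTTGGCGC starts with the GCGC that ends TTTCGCGC. Any E2F form was found in 11 of 34 promoters (32.4%), against 2.32% of the promoters of 27025 genes and 4.27% of those of 9560 genes tested here. By form the counts were 5 for TTTCGCGC, 5 for TTTGGCGC, 6 for TTTCCCGC and 0 for TTTGCCGC, where 0.318%, 0.537%, 1.11% and 0.429% of all promoters held them. At least 2 forms were held by 5 promoters (14.7%), against 0.0814% of all. Over only the 28 promoters found to read into a transcript, the counts were 9 with any E2F form (32.1%), 3 with at least 2 forms (10.7%) and 17 with CCAAT (60.7%).

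CCAAT was found in 21 of the 34 promoters (61.8%, against 37.9% of all and 39.3% of those of genes tested). The CHR element was found in 4 (11.8%, against 18.1% of all and 12.5% of those of genes tested), and in 12 of 16 promoters of the mitosis list (75%), of which 1 held an E2F form. A match describes letters in a window and does not show that a factor binds. The sizes of change were close with and without a match: the median log2FC of the 11 genes with an E2F form and of the 23 without was -0.41 and -0.43 with LPS, and -0.89 and -0.86 with PIC. Only 4 exact E2F forms were searched, so the 23 genes are not known to lack E2F sites. The part of E2F sites in the changes was thus not tested. The promoters of Mcm5 and Mcm6, both without that check of the start, and of Gins3 and Cdc6 are shown as examples with E2F forms, and those of Tk1, which fell most, and Pola2, which rose with PIC, because they held none of the motifs searched. Each runs over the 200 bases before the start, in the direction of the gene, with motifs in capitals, at chr8:75109309-75109508 (plus strand) for Mcm5, chr1:128359706-128359905 (minus) for Mcm6, chr8:95633359-95633558 (plus) for Gins3, chr11:98907951-98908150 (plus) for Cdc6, chr11:117826015-117826214 (minus) for Tk1 and chr19:5964207-5964406 (minus) for Pola2.
Mcm5: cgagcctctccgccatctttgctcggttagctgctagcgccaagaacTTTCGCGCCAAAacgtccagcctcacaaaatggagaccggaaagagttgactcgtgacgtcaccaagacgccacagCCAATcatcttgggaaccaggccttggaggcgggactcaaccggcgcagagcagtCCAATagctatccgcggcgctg
Mcm6: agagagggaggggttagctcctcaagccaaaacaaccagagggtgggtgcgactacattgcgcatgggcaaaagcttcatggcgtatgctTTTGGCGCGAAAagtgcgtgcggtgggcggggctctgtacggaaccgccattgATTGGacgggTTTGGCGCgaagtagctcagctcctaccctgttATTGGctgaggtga
Gins3: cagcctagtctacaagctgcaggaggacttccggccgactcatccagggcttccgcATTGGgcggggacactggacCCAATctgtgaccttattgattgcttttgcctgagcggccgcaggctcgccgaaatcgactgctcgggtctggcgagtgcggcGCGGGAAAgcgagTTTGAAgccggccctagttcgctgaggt
Cdc6: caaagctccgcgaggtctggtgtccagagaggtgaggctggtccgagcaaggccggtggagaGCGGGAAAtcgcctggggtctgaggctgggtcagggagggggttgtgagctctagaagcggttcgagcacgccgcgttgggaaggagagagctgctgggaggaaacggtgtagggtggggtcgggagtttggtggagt
Tk1: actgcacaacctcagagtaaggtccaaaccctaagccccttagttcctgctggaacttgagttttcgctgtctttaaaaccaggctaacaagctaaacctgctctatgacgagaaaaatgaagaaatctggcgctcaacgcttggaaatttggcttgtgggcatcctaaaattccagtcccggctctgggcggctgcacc
Pola2: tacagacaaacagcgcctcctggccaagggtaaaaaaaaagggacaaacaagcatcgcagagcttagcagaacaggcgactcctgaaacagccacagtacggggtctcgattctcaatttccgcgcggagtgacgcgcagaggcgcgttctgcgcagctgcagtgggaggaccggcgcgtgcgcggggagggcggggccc
In Mcm5 and Mcm6 the run of capitals with GCGC in its middle holds both TTTCGCGC and TTTGGCGC, read on opposite strands.

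Several of the 42 genes lie where another gene is transcribed, which bears on how their counts can be read. The notes with the series name directional as well as non-directional libraries, and the strand setting used in counting is not given. On the other strand, 11 of the 42 genes are overlapped by a gene with at least 10% of their counts: Orc6, Mcm7, Cdc45, Gins2, Rfc2, Rfc4, Rfc5, Fen1, Lig1, Chaf1a and Ccne2. Fen1 shares 156 bases with Tmem258, which had 1405 counts per library on average, and 64.6% of its span with Gm10143. Tmem258 was at a log2FC of -0.03 with LPS, -0.0011 with PIC, -0.26 for LPS + TBHQ against LPS, where Fen1 rose, and -0.08 for PIC + TBHQ against PIC. Gm10143, with 13.4 counts per library on average, was at -0.41 with LPS, -0.33 with PIC, 0.42 for LPS + TBHQ against LPS and -0.03 for PIC + TBHQ against PIC, and passed in none of these (adjusted p = 0.428, adjusted p = 0.492, adjusted p = 0.504 and adjusted p = 0.968). Ccne2 is overlapped over 41.9% of its span by Ints8, which was at 0.01 with LPS, 0.22 with PIC, 0.06 for LPS + TBHQ against LPS and -0.02 for PIC + TBHQ against PIC. Some such neighbours had values for TBHQ of the same sign as the gene they overlap, and those of Ubxn6 did not pass. Ubxn6, over 16.5% of the span of Chaf1a, was at 0.28 for LPS + TBHQ against LPS (adjusted p = 0.0562) and 0.20 for PIC + TBHQ against PIC (adjusted p = 0.156), where Chaf1a was at 0.33 and 0.28. Lat2, over 8.73% of the span of Rfc2, was at 0.30 (adjusted p = 1.63e-07) and 0.33 (adjusted p = 1.28e-08), where Rfc2 was at 0.15, a rise, and 0.08, which did not pass. The rise of Rfc2 after LPS was lost in DESeq2 and without any 1 of 4 libraries. The part of such overlaps in the levels above was not tested. By sequence, more than 10% of the transcript words of 50 bases also occur in another gene for Pcna (19.1%, mainly Pcna-ps2), Mcm7 (18.1%, mainly Gm5487) and Uhrf1 (15.4%, mainly Gm5648). The positions of whole genes given with their identifiers are those of the authors' files, unlike those of the promoters, and their build is named both GRCm38 and mm39 in their notes: the start given there equals that of GRCm38 for 1 of the 42 genes and for 1485 of 52073 gene identifiers shared with that annotation.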

How the data were processed

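The authors made the counts before deposit with HISAT2 2.0.5 alignment, StringTie 1.3.3b assembly and featureCounts 1.5.0-p3, and the count of each gene in each library was used as deposited. The authors computed FPKM from counts, gene length and library size, and the deposited FPKM were used for levels only. The gene length was taken as the authors deposited it. The deposited FPKM differed from FPKM recomputed from counts, gene length and library total by 1 constant per library, which times the TMM factor was 1.004 to 1.019, so the deposited values carry a scaling close to TMM.

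Genes with enough counts by filterByExpr (13691 of 56748) were fitted in edgeR 4.0.16 (R 4.3.3) with TMM scaling and 1 coefficient per condition over 18 libraries, tested by quasi-likelihood, and adjusted by Benjamini-Hochberg over all genes tested. SE is |log2FC| divided by the square root of F. The code was tested on simulated data. Alternatives were DESeq2 1.42.0, limma 3.58.1 on log2 FPKM, other scalings, filters and thresholds, a replicate block and omission of each library. The members and lists were chosen with earlier results of these data known. Values in each library are given for 13 genes chosen by role and for the largest changes in either direction; other genes were named after their values were seen. No list was tested as a set. Figures were drawn with matplotlib 3.10.9. The deposited labels name both directional and non-directional libraries, the methods call them strand-specific, and the counting strand is not given.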

Additional observations from a re-analysis of the deposited data

Results flagged for a closer look

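A difference between the stimuli in the effect of TBHQ was measured in 3 genes, as the log2FC of TBHQ after PIC minus that after LPS. Rrm1, the large subunit of ribonucleotide reductase, was at -0.19, with TBHQ at 0.13 after LPS and -0.07 after PIC. Rrm1 (edgeR, adjusted p = 0.046) lost its call in 2 of 10 other settings and without any 1 of 6 libraries. Its partner Rrm2 was at -0.31, with TBHQ at 0.21 after LPS and -0.10 after PIC. Slbp, of histone mRNA, was at -0.34, with TBHQ at 0.07 after LPS and -0.27 after PIC. The cause was not tested.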

How the results depend on the processing

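Counts of members moved with some settings. The limit of the study (FDR below 0.01 and |log2FC| above 2) left 0 members higher and 0 lower in every comparison, that is each of the 5 treatments against the control, TBHQ against no TBHQ after each stimulus, PIC against LPS without and with TBHQ, and the difference in the effect of TBHQ. At an FDR below 0.01 alone, TBHQ against the control had 2 higher and 1 lower, PIC + TBHQ against PIC had 2 lower, and the difference in the effect of TBHQ had 1 lower. For TBHQ against the control, lower members numbered 1 in DESeq2 and 3 in limma on log2(FPKM + 1) or log2(FPKM + 0.1). For LPS + TBHQ against the control, higher members numbered 5 with RLE, upper quartile, a mean of at least 50 counts or only the conditions compared, and 1 with total library size. For LPS + TBHQ against LPS, 1 was lower with RLE, no filter, a mean of at least 50 counts or only the conditions compared. With total library size, 0 were higher in PIC against the control and in PIC against LPS, and 2 were lower in PIC + TBHQ against PIC.

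Without each library in turn, TBHQ against the control had 1 to 4 higher (1 without Control replicate 3, 2 without TBHQ replicate 3, 3 without TBHQ replicate 2) and 1 to 3 lower (1 without Control replicate 2), and every omission moved the lower count. LPS against the control had 0 to 1 higher (0 without LPS replicate 2). LPS + TBHQ against LPS had 12 to 20 higher (12 without LPS replicate 1) and 0 to 1 lower (1 without LPS replicate 1). PIC + TBHQ against PIC had 6 to 10 higher (6 without PIC replicate 2) and 3 to 7 lower (3 without PIC replicate 3 or PIC + TBHQ replicate 1, 7 without PIC replicate 1). The difference in the effect of TBHQ had 2 to 5 lower (5 without LPS replicate 3). The cause was not tested.

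With libraries paired by number in a replicate block, LPS + TBHQ against LPS had 19 higher and 0 lower, and PIC + TBHQ against PIC 10 and 5. Whether equal numbers belong together was checked: the correlation of libraries with the same number after removal of condition means had a median of 0.0023 and ran from -0.04 to 0.06 over 45 pairs, and 10 of 18 libraries lay nearer to their own number.

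Limits of the design are 3 libraries of 1 cell line per condition, a TBHQ group harvested at 4 h where the control followed the 12 h schedule, and bulk RNA, in which the share of cells in S phase was not measured. Protein and DNA synthesis were not analysed here.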

Other observations

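Genes of nucleotide supply outside the 42 did not all move with them. Samhd1, which breaks down deoxynucleotides, measured 25.9, 25.2 and 24.3 FPKM in the control, 34.8, 32.0 and 32.7 with LPS and 35.2, 36.8 and 35.1 with PIC. All LPS and PIC libraries without TBHQ thus lay above all control libraries. Samhd1 rose, at a log2FC of 0.39 (SE 0.0377, adjusted p = 5.33e-11) with LPS and 0.49 (SE 0.0376, adjusted p = 9.82e-14) with PIC. With TBHQ it measured 22.1, 22.1 and 21.5 FPKM after LPS and 26.0, 27.0 and 24.97 after PIC, lower than the stimulus alone at -0.60 (SE 0.0379, adjusted p = 4.21e-15) and -0.45 (SE 0.0376, adjusted p = 6.76e-12). Its direction was thus the reverse of that of Rrm2 and Tk1, which supply deoxynucleotides, with LPS, with PIC and with TBHQ after LPS. This did not hold for every supply gene. With TBHQ after LPS, Tyms was at -0.01 (adjusted p = 0.943). Dck, of the nucleotide synthesis list, fell with TBHQ as Samhd1 did, at -0.21 (adjusted p = 0.00904) after LPS and -0.25 (adjusted p = 0.00151) after PIC.

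Pfas, of purine synthesis, measured 12.8, 12.3 and 13.1 FPKM in the control, 8.08, 8.17 and 8.43 with LPS and 6.20, 6.27 and 6.65 with PIC, while TBHQ beforehand gave 10.7, 10.5 and 11.4 after LPS and 8.75, 8.14 and 8.03 after PIC. It fell with both stimuli (-0.64, SE 0.0494, adjusted p = 2.46e-13, and -1.01, SE 0.0507, adjusted p = 5.85e-19) and was higher with TBHQ after each (0.40, SE 0.0498, adjusted p = 7.92e-08, and 0.39, SE 0.0527, adjusted p = 2.8e-07). Mthfd2, a mitochondrial enzyme of folate metabolism, rose with LPS (0.77, SE 0.0354, adjusted p = 8.9e-20) and PIC (0.75, SE 0.0354, adjusted p = 1.11e-19), and TBHQ left Mthfd2 at -0.05 (SE 0.0344, adjusted p = 0.326) after LPS and -0.06 (SE 0.0346, adjusted p = 0.215) after PIC.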
